A study of Mus musculus with 8 samples.

Results

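The *Hox* genes encode homeodomain transcription factors that lie side by side in 4 clusters of the mouse genome. All protein-coding genes whose symbol is Hox, a cluster letter from a to d and a number were taken from the GENCODE annotation of mm10. The rule gave 39 of 21951 protein-coding genes, with 11 in *Hoxa* on chromosome 6, 10 in *Hoxb* on chromosome 11, 9 in *Hoxc* on chromosome 15 and 9 in *Hoxd* on chromosome 2. No measured value was used to choose them.

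Chromatin immunocleavage sequencing (ChIC-Seq) was performed with antibodies against PBRM1 and BRG1, with 3 replicates each, to locate where both proteins sit in the chromatin of uterine stromal cells on day 4 (D4). In this assay an antibody guides a protein A–micrococcal nuclease fusion to its antigen in fixed cells, and the DNA cut out around it is sequenced. PBRM1 is the BAF180 subunit of the PBAF form of the SWI/SNF chromatin remodeling complex, and BRG1 is an ATPase of that complex, also found in SWI/SNF complexes without PBRM1. All cells were primary stromal cells of WT mice aged 8 to 12 weeks, so that no allele or treatment differed between the groups. The labels give D4 of pregnancy, whereas the protocol describes horns pooled from 5 to 10 pseudopregnant mice, stromal cells plated for some hours and 50000 cells per library, fixed for 5 minutes. It is not stated whether replicates came from separate pools of mice, so the spread between them may be technical. The 2 IgG libraries are not analysed here, and the peak lists name no control, so that a peak stands out from the surrounding DNA of the same library and nothing else. Open or easily cut chromatin could give such a peak whatever the antibody, and these lists do not tell it apart from binding.

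The order of the genes along a cluster follows the order of their expression along the body axis. Genes are numbered 1 to 13 by paralog group, from the anterior (3′) to the posterior (5′) end of a cluster. In the female reproductive tract, *Hoxa9*, *Hoxa10*, *Hoxa11* and *Hoxa13* mark the oviduct, uterus, cervix and upper vagina in that order, and *Hoxa10* and *Hoxa11* are needed in the uterine stroma for implantation and decidualization. In many cell types, silent *Hox* genes are held under Polycomb repression, which SWI/SNF complexes can oppose.

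The DNA under the peaks that the results turn on is shown first, as windows of 121 bp of mm10 on the strand of the cluster, read 5′ to 3′ with CpG dinucleotides in capitals. The windows were centred on the summit of the pooled BRG1 peak, or moved upstream until they held no untranslated region. The first 3 are sites with a peak in all 6 replicates, at *Hoxd1* (chr2:74762859-74762979, just upstream of the start site), *Hoxc5* (chr15:103014413-103014533, reaching into an exon) and *Hoxc6* (chr15:102999273-102999393, an intron). Next are the proximal and the distal start site of *Hoxa10* (chr6:52234940-52235060 and chr6:52240855-52240975), where the proteins had peaks in different replicates. The site upstream of *Hoxa11* (chr6:52246045-52246165) follows. The windows of *Hoxd1* and of the proximal *Hoxa10* site were moved by 6 bp. That of the distal *Hoxa10* site was moved by 96 bp and lies beside the summit, which it does not hold. The last 2, in exons of *Hoxb9* (chr11:96271769-96271889) and *Hoxc8* (chr15:102990879-102990999), had BRG1 in all 3 replicates and PBRM1 in no replicate, although in the pooled list.
Hoxd1: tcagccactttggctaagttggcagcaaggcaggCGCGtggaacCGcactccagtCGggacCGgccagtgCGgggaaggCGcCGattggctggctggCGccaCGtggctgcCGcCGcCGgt
Hoxc5: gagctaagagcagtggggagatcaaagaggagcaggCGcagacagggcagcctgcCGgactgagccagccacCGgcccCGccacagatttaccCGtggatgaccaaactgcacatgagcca
Hoxc6: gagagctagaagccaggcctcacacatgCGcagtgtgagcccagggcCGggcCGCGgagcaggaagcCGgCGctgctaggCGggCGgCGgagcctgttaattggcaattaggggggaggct
Hoxa10 proximal: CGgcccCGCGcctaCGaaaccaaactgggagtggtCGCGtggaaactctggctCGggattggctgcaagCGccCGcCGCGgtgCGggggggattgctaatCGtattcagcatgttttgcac
Hoxa10 distal: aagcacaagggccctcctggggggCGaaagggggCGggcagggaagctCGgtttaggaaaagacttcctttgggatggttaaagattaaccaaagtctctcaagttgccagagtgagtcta
Hoxa11 upstream: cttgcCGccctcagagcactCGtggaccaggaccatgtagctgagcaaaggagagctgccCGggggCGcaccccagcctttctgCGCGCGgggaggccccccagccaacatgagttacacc
Hoxb9: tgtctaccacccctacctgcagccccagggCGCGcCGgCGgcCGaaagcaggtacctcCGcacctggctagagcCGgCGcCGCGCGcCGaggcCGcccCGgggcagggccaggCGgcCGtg
Hoxc8: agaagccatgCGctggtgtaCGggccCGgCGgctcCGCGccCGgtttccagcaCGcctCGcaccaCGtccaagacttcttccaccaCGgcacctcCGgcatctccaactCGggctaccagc
CpG dinucleotides were frequent in most of these windows, with 13 at *Hoxd1*, 5 at *Hoxc5*, 9 at *Hoxc6*, 13 at the proximal and 3 at the distal *Hoxa10* site, 7 upstream of *Hoxa11*, 16 at *Hoxb9* and 13 at *Hoxc8*.

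The replicate lists were called from 8868777 to 16505239 fragments for PBRM1 and from 11506964 to 14595089 for BRG1, and held 21912 to 26363 and 36656 to 40610 peaks. PBRM1 replicate 3 had the most fragments and the fewest peaks. Of the stromal markers *Vim*, *Pdgfra*, *Pdgfrb*, *Col1a1*, *Nr2f2* and *Hand2*, 5 of 6 had a promoter peak in all 6 replicates and the exception was *Col1a1*, whereas 0 of 6 epithelial, 0 of 3 endothelial and 0 of 3 immune markers did, beside 51.9% of all protein-coding genes. Peaks of BRG1 in all 3 replicates were found, however, at 3 of 6 epithelial, 2 of 3 endothelial, 0 of 3 immune and 2 of 2 smooth muscle markers, 1 of which (*Des*) had all 6, beside 61.4% of all genes with BRG1 in all 3. A promoter peak is not a measure of expression, and the part of other cells in the *Hox* peaks was not tested.

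BRG1 peaks lay at the promoters of most *Hox* genes, and PBRM1 peaks at fewer. A gene was counted when a peak overlapped the 2000 bp on either side of any of its annotated transcription start sites. PBRM1 replicates 1, 2 and 3 had a peak at 16, 16 and 13 of the 39 genes, beside 60.0%, 60.7% and 55.3% of all protein-coding genes. BRG1 replicates 1, 2 and 3 had one at 30, 27 and 26 genes, beside 66.1%, 65.1% and 65.0% of all genes. The share of *Hox* genes was thus 38.5% ± 4.44 (SD, n = 3) with the PBRM1 antibody and 70.9% ± 5.34 (SD, n = 3) with the BRG1 antibody, and no PBRM1 replicate reached the lowest BRG1 replicate. Over all genes the shares were 58.7% ± 2.90 and 65.4% ± 0.590 (SD, n = 3 in each group), also without overlap. PBRM1 was therefore at a smaller share of *Hox* genes than of all genes in every replicate. The BRG1 shares of *Hox* genes, 76.9%, 69.2% and 66.7%, were above those of all genes, but close to them in replicates 2 and 3. With BRG1 required in all 3 replicates, the share of *Hox* genes was the lower one, 53.8% beside 61.4%.

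Replicate support lowered both counts. PBRM1 was found in all 3 replicates at 9 of 39 *Hox* genes (23.1%) beside 52.2% of all genes, and BRG1 at 21 of 39 (53.8%) beside 61.4%. All 6 replicates had a promoter peak at the same 9 genes as PBRM1 alone, beside 51.9% of all genes: *Hoxa7*, *Hoxa10*, *Hoxc5*, *Hoxc6*, *Hoxd1*, *Hoxd3*, *Hoxd4*, *Hoxd9* and *Hoxd11*. In the lists that the authors called on pooled fragments, PBRM1 reached 31 *Hox* genes (79.5%) beside 68.7% of all genes, and BRG1 38 (97.4%) beside 72.1%. For PBRM1, the share of *Hox* genes was thus below that of all genes in each replicate but above it in the pooled list. Only *Hoxb8* (chromosome 11, 96281905 to 96285315) had no promoter peak in any of the 8 lists, beside 26.4% of all genes. *Hoxa2* and *Hoxa5* had one in the pooled BRG1 list alone, and *Hoxc11* in the 2 pooled lists alone. Nearly every *Hox* promoter thus held a BRG1 peak once fragments were pooled, and few held a PBRM1 peak in each replicate. These counts depend on the promoter definition and the lists: PBRM1 in all 3 replicates was found at 15 genes with 5000 bp on either side of a start site, at 4 with the principal start site alone and at 1 with a −log10 q of at least 5. The number of genes without any peak, 1, was 0, 4 and 4 under these settings. BRG1 was found in all 3 at 13 genes when the lists were cut to equal length.

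Support by the 2 antibodies was nested, at *Hox* genes as at other genes. Over all genes, 11388 of the 11454 with PBRM1 in all 3 replicates had a promoter peak in all 6. All 14 *Hox* genes with PBRM1 in at least 2 replicates had BRG1 in all 3. They were the 9 above and 5 that lacked a single PBRM1 replicate, among them *Hoxb3* and *Hoxd10*. *Hoxa9*, *Hoxb2*, *Hoxc4* and *Hoxd12* had BRG1 in all 3 and PBRM1 in 1 replicate. Among them, *Hoxd12* had the highest PBRM1 fold of any *Hox* promoter in a replicate, 7.68 in replicate 1, and no peak in replicates 2 and 3. The summit of that peak was at -1943 bp from the start site, near the edge of the promoter window. *Hoxc4* had BRG1 folds of 6.88, 5.28 and 7.02 and a PBRM1 fold of 3.77 in replicate 3 alone, with summits at -1637 to -1525 bp. At *Hoxd12* a high PBRM1 fold in 1 replicate thus did not go with a peak in the others. BRG1 was found in 2 replicates at 7 further genes, in 1 at 6 and in none at 5, of which *Hoxa6* alone had a PBRM1 replicate, with a fold of 2.81.

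**Figure D1:**
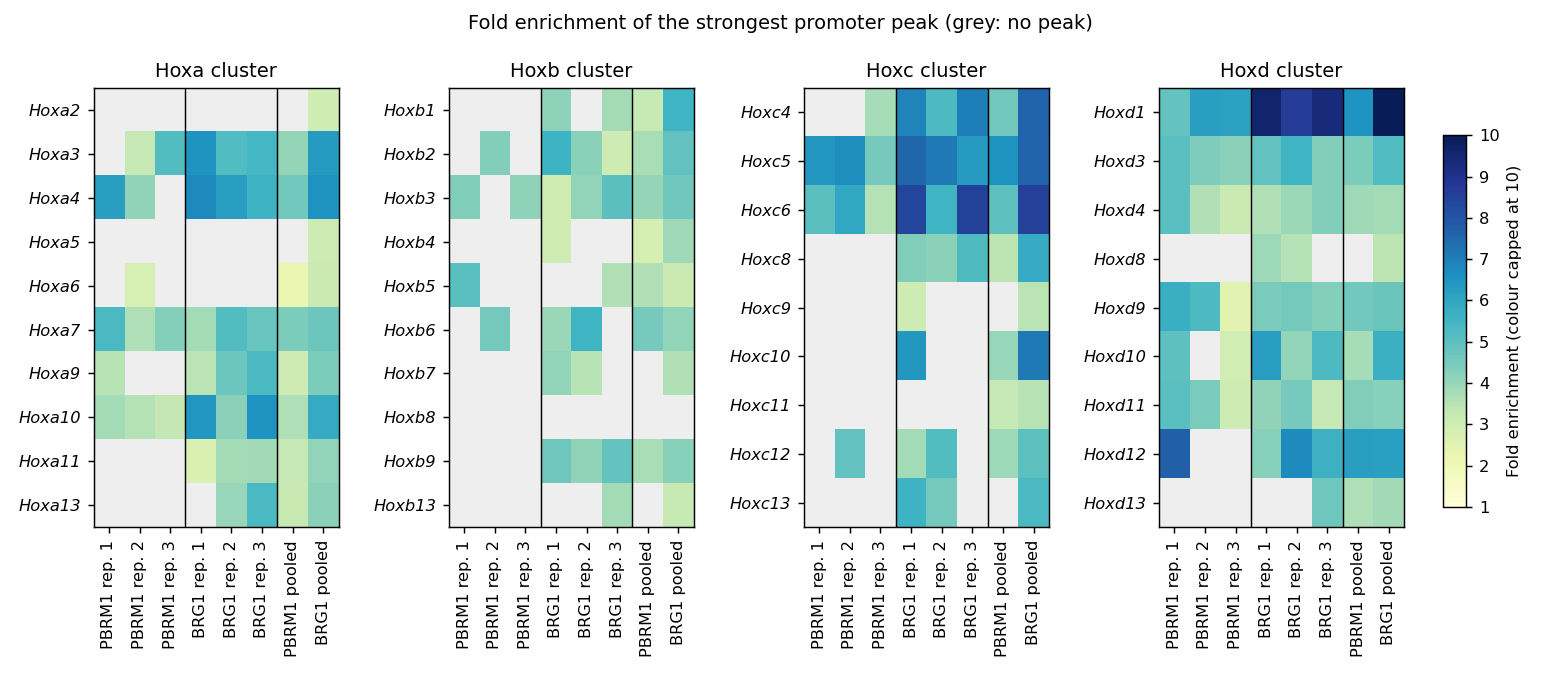
Fold enrichment over the local background of the strongest promoter peak of the *Hox* genes (rows, by cluster, with 1 gene not shown) in the 6 replicate lists and the 2 pooled lists (columns). Grey marks the absence of a peak: only *Hoxb8* is grey throughout, *Hoxd1* has the deepest BRG1 colour, and the PBRM1 replicate columns of *Hoxb* hold peaks at few genes.

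The 4 clusters differed. *Hoxd* had the most genes with support in all 6 replicates, 5 of 9, followed by 2 of 11 in *Hoxa*, 2 of 9 in *Hoxc* and 0 of 10 in *Hoxb*. This order rests in part on alternative start sites and shared peaks. With the principal start site alone, only *Hoxc5*, *Hoxd1* and *Hoxd9* had all 6 replicates. The site at 74711840 to 74712352 counted for both *Hoxd3* and *Hoxd4*. BRG1 in all 3 replicates was found at 7 genes of *Hoxa*, 3 of *Hoxb*, 4 of *Hoxc* and 7 of *Hoxd*. By position, the 12 genes of paralog groups 1 to 4 had BRG1 in all 3 replicates at 9 and all 6 replicates at 3. The 11 genes of groups 5 to 8 had 4 and 3, and the 16 posterior genes of groups 9 to 13 had 8 and 3. Counted by gene, support in all 6 replicates was thus found in each range of groups. At *Hoxa10* and *Hoxd11* it came from different sites in different replicates. With 1 and the same site required, an alternative chosen after seeing the data, *Hoxd9* alone was left of the posterior genes. These are counts of few genes, which share chromatin within a cluster, and no test was run on them.

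The low PBRM1 counts were also seen among CpG-rich promoters. In the 250 bp on either side of the principal start site, 24 of 39 *Hox* genes (61.5%) were CpG-rich (an observed-to-expected CpG ratio of at least 0.6 and at least 50% G+C) beside 49.7% of all genes. Among CpG-rich promoters, PBRM1 was found in all 3 replicates at 25.0% of *Hox* genes and at 83.1% of all genes, and BRG1 at 54.2% and 93.5%. The class is that of the principal start site, whereas a peak at any start site counted. Of the CpG-rich *Hox* genes with PBRM1 in all 3, *Hoxa7*, *Hoxd3* and *Hoxd11* lacked this support at the principal start site alone. In the pooled BRG1 list the shares were close, with 24 of 24 CpG-rich *Hox* promoters and 98.5% of all. In the pooled PBRM1 list they were 79.2% and 97.0%, so that the *Hox* share stayed the lower one. The same pattern was seen at 98 homeobox genes outside the clusters, found by family symbol, which include the *Meis*, *Pbx* and *Pknox* cofactors. Of the 71 CpG-rich ones, 15.5% had PBRM1 and 47.9% had BRG1 in all 3 replicates, and 91.5% had a peak in the pooled BRG1 list. Low replicate support was thus also found at homeobox genes that lie outside the clusters.

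**Figure D2:**
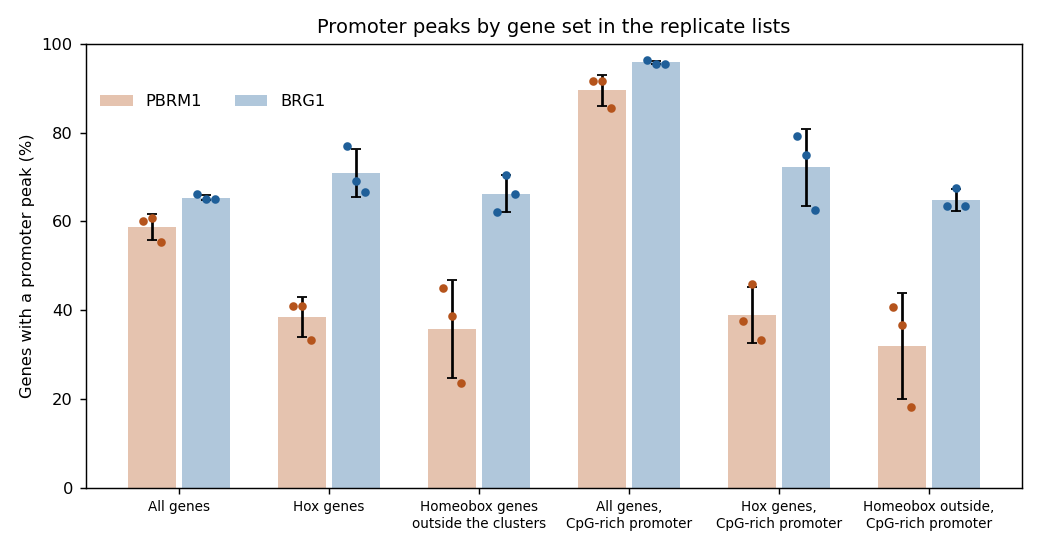
Share of genes with a promoter peak (%) in each replicate list (points), with the mean (bar) and SD (whisker, n = 3), for PBRM1 (brown) and BRG1 (blue). For PBRM1, CpG-rich promoters of all genes lie between 85.5% and 91.6%, and those of *Hox* genes between 33.3% and 45.8%.

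The *Hox* promoter peaks ranked low among all promoter peaks. Among genes with a promoter peak, the strongest peak of *Hox* genes had a median fold enrichment of 5.05, 4.36 and 3.77 in PBRM1 replicates 1, 2 and 3, beside 7.52, 6.78 and 5.73 over all genes. In BRG1 replicates 1, 2 and 3 it was 4.41, 4.57 and 5.13, beside 8.08, 8.13 and 8.22. All 6 medians of the *Hox* genes were below those of all genes. Ranked by q-value within its own list, the median *Hox* promoter peak stood at percentile 44.6, 38.1 and 17.3 for PBRM1 and 54.5, 51.6 and 58.3 for BRG1, beside 72.1 to 75.0 and 81.0 to 82.4 over all genes. The number of fragments stacked at the summit (the pileup) and the local background were set apart, both per 1000000 fragments of the library. The median pileup of the *Hox* promoter peaks was 1.80, 1.33 and 0.969 in PBRM1 replicates 1, 2 and 3, beside 2.71, 2.11 and 1.45 over all genes. In BRG1 replicates 1, 2 and 3 it was 1.58, 1.91 and 1.66, beside 2.74, 2.87 and 2.90. The median local background was 0.201 to 0.271 in the 6 lists, beside 0.198 to 0.262. The *Hox* promoter peaks thus had fewer stacked fragments over a background close to that of other promoters. No test was run between the sets of genes.

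**Figure D3:**
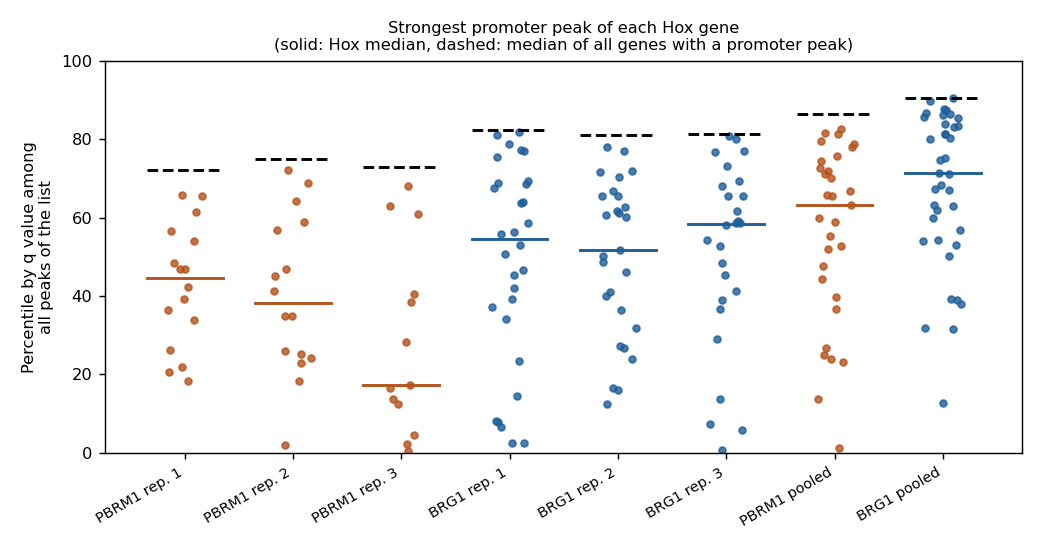
Percentile of the strongest promoter peak of each *Hox* gene (points) among all peaks of its own list, ranked by q-value, with the *Hox* median (solid line) and the median of all genes with a promoter peak (dashed line). The dashed line is above the solid line in all 8 lists, and PBRM1 replicate 3 has the lowest *Hox* median, 17.3.

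The summits of the *Hox* promoter peaks often stood away from the start site. They lay at a median of 259, 396 and 311 bp from the nearest start site in PBRM1 replicates 1, 2 and 3 and of 348, 266 and 200 bp in BRG1 replicates 1, 2 and 3. Over all genes the medians were 112 to 118 bp and 87.0 to 89.0 bp. In the pooled BRG1 list, 12 of 38 *Hox* summits (31.6%) were more than 500 bp away, beside 13.6% of all genes, and 24 of 38 (63.2%) lay downstream of the start site, beside 41.1%. The peaks were shorter in each replicate, with medians of 356, 356 and 367 bp for PBRM1 and 354, 300 and 268 bp for BRG1, beside 522 to 593 bp and 575 to 639 bp over all genes. Weaker peaks are shorter in a list cut at a fixed q-value, and the part of strength in this difference was not tested.

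The genes that pattern the uterus are in the posterior part of *Hoxa*. *Hoxa10* (chromosome 6, 52231197 to 52240854, minus strand) was the only one of *Hoxa9*, *Hoxa10*, *Hoxa11* and *Hoxa13* with a promoter peak in all 6 replicates. Its strongest promoter peak had fold enrichments of 3.81, 3.54 and 3.30 in PBRM1 replicates 1, 2 and 3 and of 6.48, 4.17 and 6.56 in BRG1 replicates 1, 2 and 3. All PBRM1 values were below all BRG1 values, although folds of different libraries are not on 1 scale. By q-value the PBRM1 peaks stood at percentile 20.5, 24.1 and 16.6 of their lists, and the BRG1 peaks at 78.9, 50.1 and 80.1. The difference of the means was -49.3 percentile points, with p = 0.1 in a two-sided exact permutation test, the smallest p that 3 against 3 samples allow. A percentile depends on the length of the list, however, and the BRG1 lists were longer. Among the 21912 strongest peaks of each list, a comparison chosen after seeing the data, the PBRM1 peaks stood at 16.7, 8.68 and 16.6 and the BRG1 peaks at 60.9, 16.5 and 65.8. The groups then overlapped, with a difference of -33.7 and p = 0.3 in the exact permutation test. The lowest BRG1 value, of replicate 2, and the highest, of replicate 3, were both those of peaks at the distal start site, where PBRM1 had a peak in replicate 2 alone. All 3 PBRM1 values were those of peaks at the proximal start site, so that the comparison was not of 1 and the same site. In the pooled PBRM1 list the *Hoxa10* peak stood at percentile 65.4 of all peaks.

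*Hoxa10* has 2 main groups of start sites, about which the replicates differed. At the proximal, principal one (site at 52234613 to 52235331), PBRM1 had a peak in 3 of 3 replicates and BRG1 in 2 of 3, with folds of 6.48 and 5.28 in replicates 1 and 3. At the distal one (52240300 to 52240981), BRG1 had a peak in 3 of 3 replicates, with 5.41, 4.17 and 6.56, and PBRM1 in replicate 2 alone, with 2.88. Neither start site alone had all 6 replicates. Both were called in both pooled lists, with PBRM1 folds of 3.61 and 3.04 and BRG1 folds of 5.83 and 4.99.

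*Hoxa11* (52242106 to 52245810), which acts with *Hoxa10* in the uterine stroma, had no PBRM1 promoter peak in any replicate. BRG1 had one in all 3, with folds of 2.71, 3.81 and 3.82 in replicates 1, 2 and 3 and percentiles of 8.11 in replicate 1 and 41.0 in replicate 2. The peak of replicate 1 was downstream of the start site at +397 bp, and those of replicates 2 and 3 were upstream at -266 and -271 bp. *Hoxa11os*, an antisense RNA, is annotated at both places, with a start site 167 bp from the downstream one. The RNA gene *Gm28032* starts 96 bp from the upstream one. The BRG1 support at *Hoxa11* thus came from 2 places, and the pooled PBRM1 peak, with a fold of 3.28, was at the upstream one. Which of the overlapping transcripts a peak belongs to cannot be told apart.

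*Hoxa9* (52223100 to 52231089), at the oviductal end of the series, had PBRM1 in replicate 1 alone with a fold of 3.48, and BRG1 in all 3 replicates with 3.44, 4.71 and 5.31. *Hoxa13* (52257694 to 52260880), the gene of the lower tract, had no PBRM1 peak in a replicate and BRG1 in replicates 2 and 3, with 4.02 and 5.32. Of these 4 genes, *Hoxa13* had the least support, and its BRG1 peaks lay 674 and 714 bp downstream of the start site. The 16 posterior genes of all clusters include these 4. Of the 16, PBRM1 had a peak at 6, 4 and 4 and BRG1 at 12, 11 and 11 in replicates 1, 2 and 3. The shares of all genes were 60.0%, 60.7% and 55.3% for PBRM1 and 66.1%, 65.1% and 65.0% for BRG1.

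**Figure D4:**
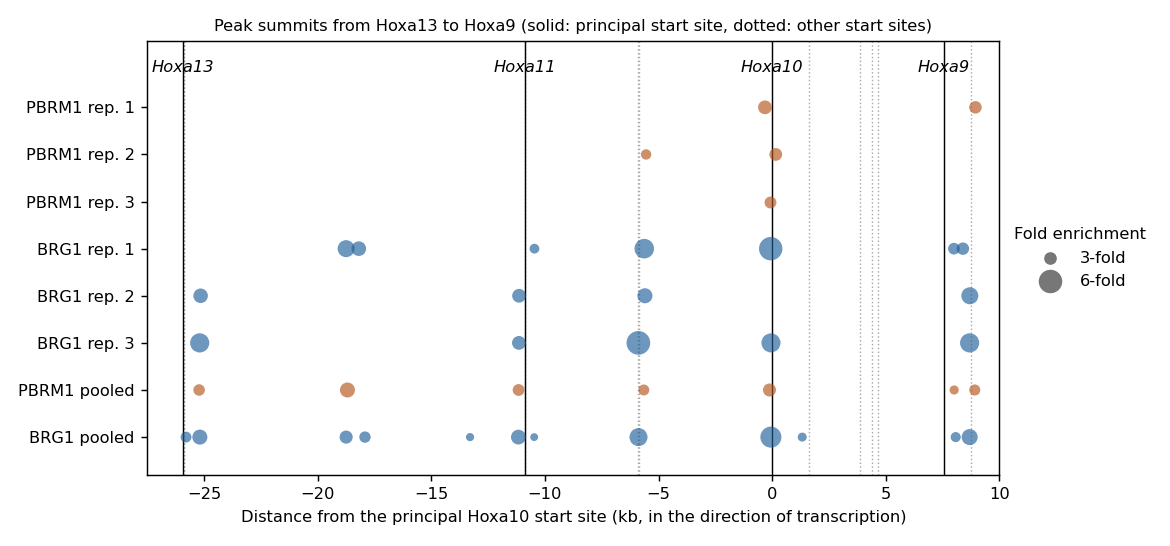
Peak summits from *Hoxa13* to *Hoxa9* in the 8 lists, by distance from the principal *Hoxa10* start site (kb, in the direction of transcription), with the area of a point scaled to the square of the fold enrichment. PBRM1 has summits at the principal *Hoxa10* start site in all 3 replicates and at *Hoxa11* and *Hoxa13* in the pooled list alone, and BRG1 recurs at the distal *Hoxa10* start site in all 3.

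Among the genes with all 6 replicates, *Hoxc5* and *Hoxd1* had the highest mean PBRM1 folds, 5.88 ± 1.18 and 5.74 ± 0.774 (SD, n = 3 each). *Hoxd1* (chromosome 2, 74762980 to 74765142), the anterior end of its cluster, had 4.85, 6.23 and 6.14 in PBRM1 replicates 1, 2 and 3 and 9.61, 8.66 and 9.30 in BRG1 replicates 1, 2 and 3. Its pooled BRG1 fold of 11.4 was the highest of all *Hox* promoters. The summit was 55 bp upstream of the start site and 29 bp from that of the divergent noncoding RNA *Haglr*. *Hoxd3* (74711927 to 74748442) had 5.05, 4.40 and 4.17 for PBRM1 and 4.87, 5.51 and 4.33 for BRG1, from peaks at several of its 6 start sites. *Hoxd1* and *Hoxd3* thus differed in BRG1, whose replicates did not overlap between the genes, more than in PBRM1, whose replicates did.

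In *Hoxc*, *Hoxc5* (chromosome 15, 102967443 to 103017429) had 6.42, 6.69 and 4.52 for PBRM1 and 7.55, 7.13 and 6.32 for BRG1. *Hoxc6* (102998257 to 103011881) had 5.02, 5.94 and 3.55 for PBRM1 and 8.37, 5.56 and 8.51 for BRG1. The lowest PBRM1 value of each gene was that of replicate 3. The *Hoxc5* peak lay inside the gene, 437 bp from the start of the *Mir615* hairpin, and the *Hoxc6* peak 1076 bp downstream of a start site in an intron. Counted from the principal start site alone, *Hoxc6* had no promoter peak in any list, so that its call rests on an alternative start site.

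*Hoxa7* (chromosome 6, 52214491 to 52221854) had 5.31, 3.61 and 4.29 for PBRM1 and 3.79, 5.17 and 4.79 for BRG1. It was the only *Hox* gene whose promoter peak had a −log10 q of at least 5 in all 6 replicates, with 10.0, 5.50 and 7.42 for PBRM1 and 10.4, 17.2 and 13.8 for BRG1. These peaks lay at an alternative start site. Counted from the principal start site alone, *Hoxa7* had BRG1 in all 3 replicates but not PBRM1. Its pileup was also the highest of the *Hox* promoters in the pooled BRG1 list, 3.33 per 1000000 fragments against 2.06 at *Hoxd1*, but its local background was 0.686 against 0.156 on the same scale. The order of *Hox* promoters therefore depends on the measure: *Hoxd1* led by fold over a low background, and *Hoxa7* by stacked fragments over a high one.

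*Hoxa11*, *Hoxb9* and *Hoxc8* had BRG1 in all 3 replicates and PBRM1 in none, and no gene had the reverse. *Hoxb9* (chromosome 11, 96271457 to 96276595) had BRG1 folds of 4.68, 4.11 and 4.85. *Hoxc8* (chromosome 15, 102990607 to 102994111) had 4.36, 4.19 and 5.24. At both genes the BRG1 replicates lay close together. Pooled PBRM1 peaks were nonetheless called at all 3 genes, with folds of 3.28 at *Hoxa11*, 3.71 at *Hoxb9* and 3.41 at *Hoxc8*. The lack of a PBRM1 peak in the replicates therefore does not show that PBRM1 was absent, and the part of depth was not tested.

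Within the clusters, from the first to the last *Hox* gene, PBRM1 replicates 1, 2 and 3 had 25, 29 and 18 peaks and BRG1 replicates 1, 2 and 3 had 58, 50 and 44. The means were 24.0 ± 5.57 and 50.7 ± 7.02 (SD, n = 3 each), a difference of -26.7 peaks with p = 0.1 in a two-sided exact permutation test, the smallest possible. The BRG1 lists were longer, and per 10000 peaks of a list the *Hox* clusters took 10.9, 11.0 and 8.21 for PBRM1 and 14.3, 13.6 and 11.7 for BRG1. This difference of -3.18 also had p = 0.1 in the exact permutation test, the groups not overlapping. When every replicate list was cut to its 21912 strongest peaks, the difference in number was -6.33 peaks. Per 10000 peaks it was then -2.89, again with p = 0.1 in the exact permutation test. Such a cut removes the weakest peaks, so that the parts of list length and peak strength cannot be told apart.

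The clusters were dense in peaks. Pooled PBRM1 peaks numbered 13.6 per 100 kb in the clusters beside 2.02 in the whole genome, and pooled BRG1 peaks 21.3 beside 3.03. *Hoxd* was densest for PBRM1, with 11, 10 and 8 peaks in the replicates over 96.8 kb, and *Hoxb* sparsest, with 3, 5 and 1 over 174 kb. In PBRM1 replicate 3, *Hoxb* held 0.575 peaks per 100 kb, below the 0.803 of the whole genome. *Hoxa* had 7, 10 and 4 PBRM1 peaks over 105 kb, and *Hoxc* 4, 4 and 5 over 116 kb. The 100 kb beyond each end of *Hoxd* held 1 or 2 PBRM1 peaks a side in each replicate. For *Hoxb*, PBRM1 replicates 1, 2 and 3 had 2, 2 and 1 peaks in the flank of lower coordinates and 4, 2 and 3 in the other. For *Hoxc*, the flank of lower coordinates held no PBRM1 replicate peak and the other held 4, 3 and 3. Not every cluster thus stood out from its flanks for PBRM1. The clusters also differed in local background, whose median at pooled PBRM1 peaks was 0.274 per 1000000 fragments in *Hoxa*, 0.150 in *Hoxb*, 0.138 in *Hoxc* and 0.253 in *Hoxd*. At pooled BRG1 peaks it was 0.300, 0.205, 0.155 and 0.373. The background was thus higher in *Hoxa* and *Hoxd* than in *Hoxb* and *Hoxc*, and its part in the peak density was not tested.

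**Figure D5:**
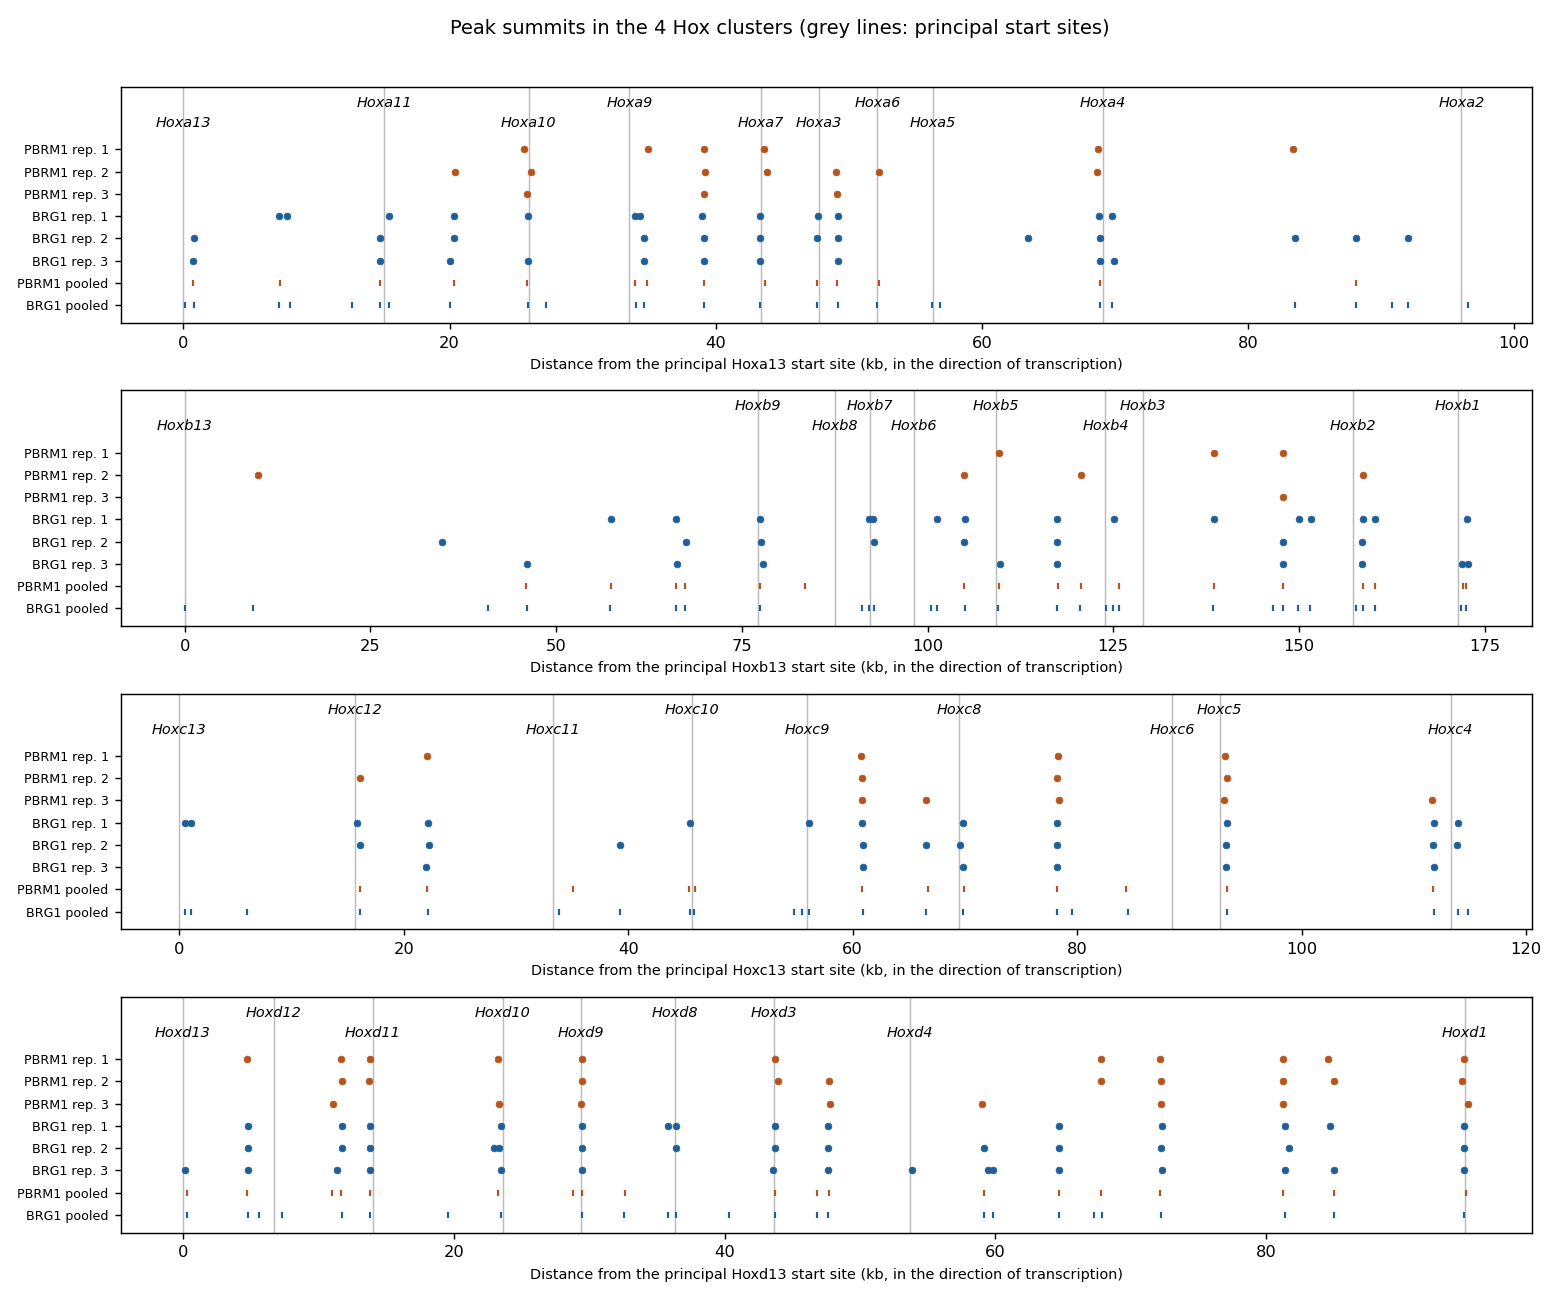
Peak summits along the 4 clusters, by distance from the principal start site of the group 13 gene (kb, in the direction of transcription), for PBRM1 (brown) and BRG1 (blue), with replicates as dots, pooled lists as ticks and principal start sites as grey lines. The surroundings of 1 gene are not shown. Columns of 6 dots are seen at 8 sites, none of them in *Hoxb*.

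Overlapping peaks of the 8 lists merged into 115 sites, 29 in *Hoxa*, 34 in *Hoxb*, 23 in *Hoxc* and 29 in *Hoxd*. By their summit, 77 sites were at a *Hox* promoter, 15 at the promoter of another gene, 2 in other exons, 9 in introns and 12 between genes. BRG1 was found in all 3 replicates at 28 sites and PBRM1 at 9, and 8 sites had all 6. A BRG1 replicate without any PBRM1 replicate was seen at 41 sites, and the reverse at 5. Replicate support was thin, since 35 sites were called in pooled lists alone and 32 in a single replicate. With 1 and the same site required in all 6 replicates, an alternative chosen after seeing the data, 6 genes were left of the 9: *Hoxa7*, *Hoxc5*, *Hoxc6*, *Hoxd1*, *Hoxd3* and *Hoxd9*.

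The 8 sites with all 6 replicates were not all at *Hox* promoters. In *Hoxc*, a site in an exon of *Hoxc9* (102981665 to 102982421), 4978 bp downstream of the nearest start site, had PBRM1 folds of 4.79, 5.54 and 4.39 and BRG1 folds of 4.26, 4.80 and 5.01. In *Hoxd*, a site 811 bp from a start site of *Haglr* (74749406 to 74750214) had 4.44, 5.23 and 6.14 for PBRM1 and 6.37, 6.46 and 4.70 for BRG1. Both proteins thus recurred inside the clusters, away from the coding start sites. Between genes, a *Hoxb* site at -6570 bp from the start site of *Hoxb4* (96311640 to 96312238) had BRG1 in all 3 replicates, with 4.58, 4.37 and 4.01, and no PBRM1 replicate. Its pooled folds were close, 4.65 for PBRM1 and 4.61 for BRG1. None of the 8 lists had a peak over the *Mir10a*, *Mir10b*, *Mir196a-1*, *Mir196a-2* or *Mir196b* hairpins, and the nearest peak edge was 911 bp from *Mir10a*.

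Of the 67 pooled PBRM1 peaks in the clusters, 61 (91.0%) overlapped a pooled BRG1 peak, beside 78.6% of all pooled PBRM1 peaks. Of the 105 pooled BRG1 peaks, 59 (56.2%) overlapped a PBRM1 peak, beside 52.4%. Pooled PBRM1 peaks in the clusters were called in all 3 replicates in 13.4% of cases, beside 24.8% of all, and pooled BRG1 peaks in 26.7%, beside 26.1%. A PBRM1 peak of the clusters thus rarely stood without a BRG1 peak in the pooled lists.

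In sequence, the pooled cluster peaks were richer in CpG than others, with a median observed-to-expected ratio of 0.711 for PBRM1 and 0.700 for BRG1 in the 250 bp on either side of the summit, beside 0.348 and 0.321 over all peaks. The core motif of CTCF, the insulator protein that divides *Hox* clusters into domains, was searched on both strands as CCANNAGNNGGC. It was found in 8.96% of PBRM1 and 8.57% of BRG1 windows in the clusters, beside 6.85% and 6.89% of all. The palindromic element of the progesterone, androgen and glucocorticoid receptors (ACANNNTGT) was found in 3 PBRM1 and 6 BRG1 windows of the clusters (4.48% and 5.71%), beside 6605 of 55071 and 10739 of 82607 windows of all peaks. The cluster windows were also richer in G+C, with medians of 59.3% and 59.9% beside 53.7% and 51.9%, and the part of base composition in these shares was not tested.

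Genes that act with the HOX proteins were read against the shares of all genes, 51.9% with all 6 replicates and 61.4% with BRG1 in all 3. Of 9 cofactor genes of the *Meis*, *Pbx* and *Pknox* families, whose proteins bind DNA together with HOX proteins, 7 had a promoter peak in all 6 replicates and 9 had BRG1 in all 3. *Meis1* had pooled folds of 4.55 for PBRM1 and 6.67 for BRG1. Of 9 known regulators of *Hox* genes, 6 had all 6 replicates: *Kmt2a*, *Men1*, *Rara*, *Rarb*, *Rarg* and *Ctcf*. The exceptions were the 3 *Cdx* genes, of which *Cdx1* had PBRM1 in 1 replicate and *Cdx2* BRG1 in 2. Of 4 genes known to respond to HOXA10 in the uterus, *Emx2*, *Itgb3* and *Ptger4* had all 6, and *Ptger3* had PBRM1 in 2 and BRG1 in 3. These lists are short, and no test was run between them and all genes.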

How the data were processed

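The 8 deposited peak lists of PBRM1 and BRG1 ChIC-Seq were analysed, grouped by antibody and replicate from the labels. Per the labels and methods, the authors trimmed reads with cutadapt, aligned them to mm10 with Bowtie2, removed duplicates and called peaks with MACS 2.2.7.1, per replicate and on pooled fragments. Headers of the lists name no control, a cutoff of 0.05 on q and 10000 bp for the local background. The deposited columns used are the pileup signal, the −log10 q-value and the fold enrichment (a ratio) that the authors' MACS call wrote.

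Values of some genes are not reported here, although counts include them. The members and gene lists were chosen with earlier results of these data known. Promoter peaks overlapped 2000 bp on either side of any start site in GENCODE vM21 by at least 1 bp. Where a gene had several, the peak with the highest −log10 q counted. The local background was computed from the pileup and fold as MACS defines it, and its smallest value matched the genome background in each list. Genes named in full were the 4 of the *Hoxa* series, the 2 per cluster with the highest mean PBRM1 fold among those with all 6 replicates, and those with no peak or with 1 antibody alone. Differences between antibodies were tested over samples by two-sided exact permutation tests (scipy 1.17.1), and overlap steps were tested on simulated data. Sequences came from the RefSeq copy of GRCm38.p6, the primary sequence of mm10, and no peak passed a chromosome end. The number of fragments limits which weak peaks were called. Alternatives were other promoter widths, transcript sets, q cutoffs, list sizes and leaving out replicates.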

Additional observations from a re-analysis of the deposited data

How the results depend on the processing

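The count of *Hox* genes with PBRM1 in all 3 replicates, 9, was 15 with promoters of 5000 bp, 5 with the GENCODE basic transcripts, 4 with 1 principal start site per gene and 1 with a −log10 q of at least 5. The count with all 6 replicates, 9, was 15, 5, 3 and 1 under these settings, and the number without any peak, 1, was 0, 2, 4 and 4. With 1 principal start site per gene, the shares of all genes were 48.8% for PBRM1 and 48.4% for all 6. The BRG1 count, 21, was 13 with lists of equal length, and otherwise within 1.5 times. With 1 replicate left out, the counts were 10 to 11 for PBRM1, 22 to 26 for BRG1 and 9 to 11 for all replicates left. The difference in cluster peaks was then -30.0 to -23.0, that per 10000 peaks -3.93 to -2.27 and that of the *Hoxa10* percentile -59.1 to -44.1, where p cannot go below 0.2. These 3 differences kept their sign under every alternative run, but no p could pass 0.05 in this design. With lists of equal length, chosen after seeing the data, the *Hoxa10* difference was -33.7 (exact permutation p = 0.3) and the groups overlapped. Requiring 1 site in all 6 replicates, chosen after seeing the data, left 6 genes. Deviations of same-numbered libraries correlated by -0.020, -0.002 and 0.003, and the main tests did not pair the samples. Such correlations cannot tell whether same-numbered libraries shared a pool of mice. With the replicate block the differences stayed -26.7, -3.18 and -49.3, with p = 0.25 in an exact sign-flip test, its smallest value. The planned *Hoxa11* percentile comparison was not run, because no PBRM1 replicate had a promoter peak there.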
